A study of Homo sapiens with 43 samples.

Results

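Sox2 binding sites were mapped by chromatin immunoprecipitation and sequencing (ChIP-seq) in 3 libraries of the lung squamous cell carcinoma line LK2, and the library of LK2_DNp63 was set against those of LK2_GFP and of LK2 itself. These 3 are Sox2 peak lists out of 43 samples in the series, 27 of which have a list of peaks. On chromosomes 1 to 22 and X they held 4217 peaks in LK2_DNp63, 12034 in LK2_GFP and 7611 in LK2, of 4229, 12057 and 7628 deposited. All 3 cultures grew in RPMI-1640 medium with serum, and the Sox2 antibody was AF2018 in each.

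The labels list no treatment and do not say how LK2_GFP and LK2_DNp63 were made, how much DNp63 protein the cells held, or whether either is a single clone. The name DNp63 usually stands for the shorter p63 isoform that basal cells make, and GFP for green fluorescent protein, a common control. The descriptions of the LK2_GFP and LK2_DNp63 libraries share a numeric code that the LK2 library lacks, and the labels do not say what it stands for. There was 1 library per arm, so no test between the arms was possible, and the difference between LK2 and LK2_GFP served as the measure of how far 2 control libraries can lie apart. A p63 list of LK2_DNp63, H3K27ac lists of all 3 cultures, a Brn2 list of LK2 and Sox2 lists of 4 other squamous lines were used to describe the sites.

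Sox2 is a transcription factor of the SOX family that binds DNA through an HMG box and commonly acts with a partner factor, which helps set the sites it occupies in a given cell type. In basal and squamous epithelia Sox2 is known to share regulatory elements with p63, the lineage factor of those cells. In neural progenitors its partners include POU factors such as Brn2. H3K27ac, acetylation of lysine 27 of histone H3, marks active enhancers and promoters.

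The LK2_DNp63 list was the shortest, yet its peaks were the widest. They covered 4.93 Mb with a median width of 1088 bp, against 861 bp in LK2_GFP (11.2 Mb) and 686 bp in LK2 (5.46 Mb). No read counts come with the lists, the depth of each library is therefore unknown, and a site missing from a list may lie below the threshold of the authors' peak calling. For this reason the lists were compared mainly by rank of the authors' score and at equal numbers of top peaks.

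When the best 4217 peaks of each list were taken, 57.3% of LK2_GFP peaks lay in LK2_DNp63 (95% Wilson interval 55.8 to 58.8). The control pair shared more: 72.6% of the same LK2_GFP peaks lay among the best of LK2 (71.2 to 73.9). LK2 and LK2_DNp63 shared 55.4% (53.9 to 56.9), so the LK2_DNp63 list stood about equally far from both controls. All such intervals cover counting error within these libraries only. The gap was present at every number of peaks tried. At the best 250 peaks LK2_GFP shared 48.4% with LK2_DNp63 (42.3 to 54.6) and 66.0% with LK2 (59.9 to 71.6). At the best 1000 peaks the shares were 53.9% and 72.3%. The intervals of the 2 comparisons did not overlap at any of these numbers.

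**Figure D1:**
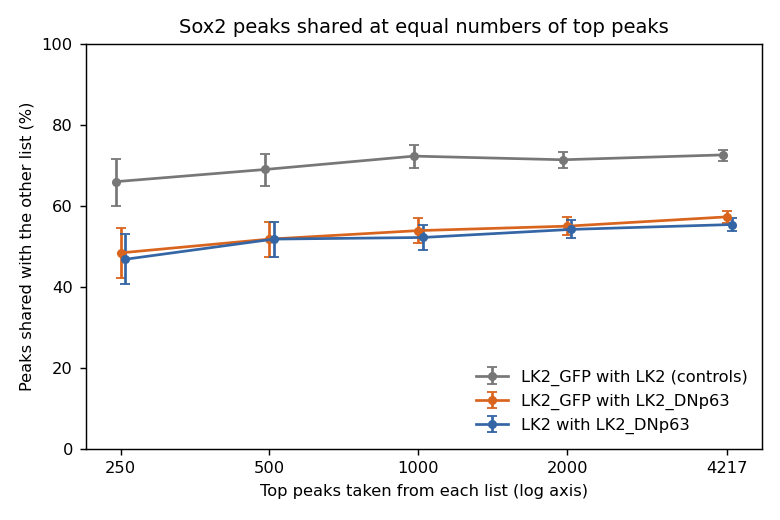
Share of Sox2 peaks found among the same number of top peaks of a second list (vertical axis, percent) against the number of top peaks taken from each list (horizontal log axis), with points moved slightly sideways and 95% Wilson intervals as bars. The grey control pair lies at 66.0 to 72.6%, above both pairs that include LK2_DNp63.

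Most of the strongest control sites were still listed somewhere in LK2_DNp63, at another rank. Of the best 250 LK2_GFP peaks, 95.2% overlapped a peak of the full LK2_DNp63 list (91.8 to 97.2). The share was 86.9% for the best 1000 (84.7 to 88.9), against 99.6% in the full LK2 list. In the other direction, 99.2% of the best 250 LK2_DNp63 peaks and 95.1% of the best 1000 overlapped a peak of LK2_GFP. The strongest LK2_DNp63 sites were therefore almost all sites of the control cells.

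A smaller set of strong control peaks had no LK2_DNp63 peak. Among the best 1% of LK2_GFP peaks these were 4 of 120, among the best 5% they were 65 of 601 (10.8%), and among the best 10% they were 192 of 1203 (16.0%, 14.0 to 18.1). Of the same 3 sets, 0, 0 and 4 peaks were absent from LK2. Among the best 10% of LK2 peaks, 84 of 761 had no LK2_DNp63 peak (11.0%), and 0 were absent from LK2_GFP. Strong peaks of either control were thus nearly always found in the other control and were missing more often from LK2_DNp63. The full LK2_DNp63 list is the shortest of the 3, and its length alone adds to these absences.

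The share found again depended on rank throughout the lists. With each list divided by rank into 10 equal groups, and from the best to the lowest group of LK2_GFP peaks, the share with an LK2_DNp63 peak went from 84.0% to 6.82%, and the share with an LK2 peak from 99.7% to 16.1%. In the second group the 2 shares were 60.1% and 93.5%. For LK2 peaks the share with an LK2_DNp63 peak went from 89.0% to 13.7%, and that with an LK2_GFP peak from 100% to 63.7%. The LK2_DNp63 list is shorter than the lists it is set against here, and its length alone lowers these shares.

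**Figure D2:**
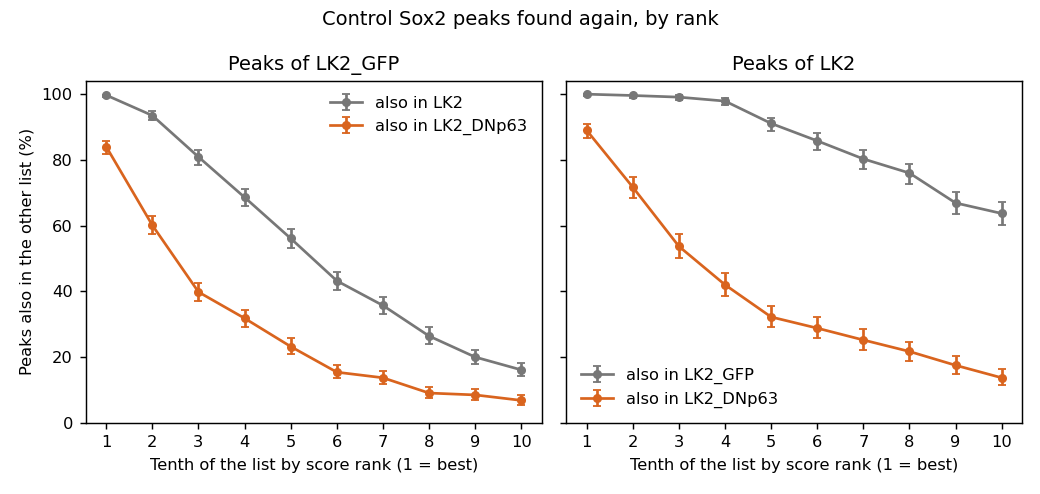
Share of control Sox2 peaks that overlap a peak of another full list (vertical axis, percent) by rank group of the control list (horizontal axis, 10 equal groups, 1 is the best), for LK2_GFP peaks on the left and LK2 peaks on the right, with 95% Wilson intervals. The orange points (LK2_DNp63) lie below the grey points (the other control) in every group, and both decline with rank.

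Ranks are given below as percentiles within a list, where 100 is the best peak. LK2_GFP peaks with an LK2_DNp63 peak had a median percentile of 79.4, and those without had 39.1. For LK2 peaks the medians were 73.2 and 37.2. LK2_DNp63 peaks that overlapped LK2_GFP had a median percentile of 54.6, and the 741 that did not had 31.6. Peaks missing from the list they were compared with were therefore mostly of middle or low rank, whether or not the third list held them.

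When the 3 lists were merged, they gave 13702 sites. Shared sites, present in all 3 lists, numbered 2881 (21.0%). Control sites, present in LK2 and LK2_GFP and absent from LK2_DNp63, numbered 3595, which is 26.2% of the merged sites. LK2_DNp63-only sites numbered 656, or 4.79%. The order was reversed at equal numbers of top peaks, where 1034 of 6851 sites were control sites and 1507 were LK2_DNp63-only. The classes below are those of the full lists unless equal numbers are named. A further 4917 sites (35.9%) were in LK2_GFP alone. These had a median percentile of 27.6 in their list, close to the 30.8 of the LK2_DNp63-only sites in theirs, and are given below as a set of similar percentile. The 2 lists differ in length (12034 and 4217 peaks), so similar percentiles are not similar rank numbers. The set is therefore not matched in peak strength. The median LK2_GFP percentile was 84.3 at shared sites and 58.5 at control sites, so these 2 classes differ in rank as well.

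Within the shared sites the order of scores differed more between LK2_DNp63 and a control than between the controls. For this comparison the 2881 sites were ranked among themselves in each list. The median absolute difference in percentile was 11.3 points between LK2 and LK2_GFP, 17.7 points between LK2_DNp63 and LK2_GFP, and 18.1 points between LK2_DNp63 and LK2. Differences over 25 points were found at 579 sites (20.1%), 1077 sites (37.4%) and 1116 sites (38.7%). Spearman's rho across these 2881 sites was 0.77 for the controls and 0.48 and 0.46 for LK2_DNp63 with LK2_GFP and with LK2. Sites are not independent replicates, and these values describe 3 libraries.

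**Figure D3:**
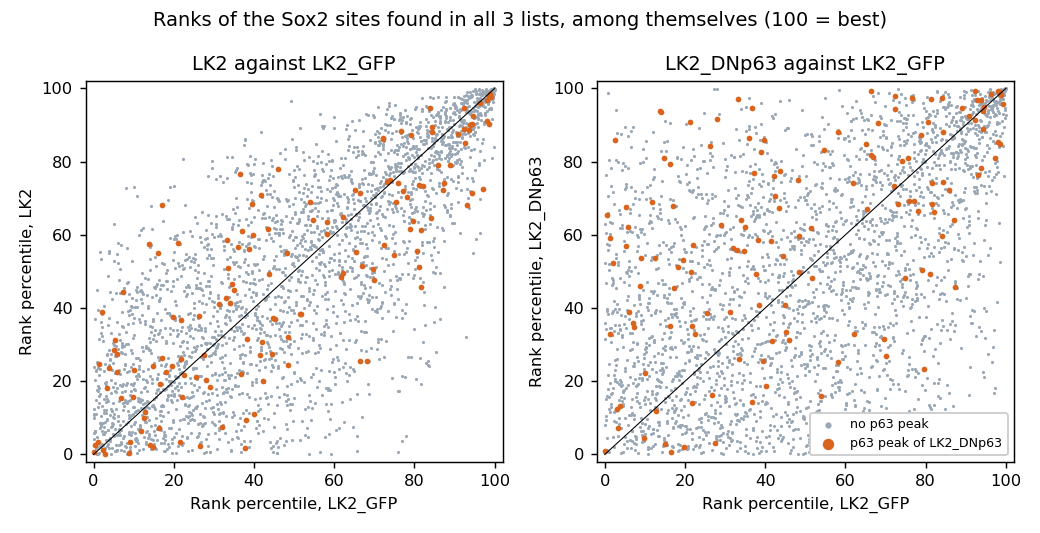
Rank percentile, among the 2881 shared Sox2 sites themselves (100 is best), in LK2 (left) and in LK2_DNp63 (right), each against the same percentile in LK2_GFP, with the line of equal rank; orange points overlap a p63 peak of LK2_DNp63. Points spread farther from the line on the right, where 37.4% lie over 25 points away against 20.1% on the left.

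The sites at the 2 ends of this shift differed in the other factors found there. Of the 576 shared sites that ranked highest in LK2_DNp63 relative to LK2_GFP, 8.16% overlapped a p63 peak (6.19 to 10.7), against 2.25% of the 577 that ranked lowest (1.32 to 3.82). Brn2 of LK2 showed the opposite order, with 25.3% of the sites that ranked higher and 41.8% of those that ranked lower. Sox2 peaks of NCI-H520, the other line with Brn2 ChIP, were found at 21.7% and 62.2%. The 2 ends are chosen by difference in rank, so sites of the lower end tend to rank high in LK2_GFP. Brn2 and NCI-H520 Sox2 fell with LK2_GFP rank, from 53.2% and 68.9% in the best of 10 groups to 6.57% and 22.6% in the lowest. Along the LK2_DNp63 ranking they fell from 56.6% and 56.4% to 17.6% and 27.1%. The part of rank in these contrasts was not tested. The same split by the difference between LK2 and LK2_GFP, which shares the LK2_GFP list, gave p63 at 4.17% and 5.03%, Brn2 at 29.9% and 37.6%, and NCI-H520 Sox2 at 33.2% and 55.1%. The split was repeated with LK2 in place of LK2_GFP as the control. p63 then lay at 7.99% of the sites that ranked higher in LK2_DNp63 and 2.08% of those that ranked lower. Brn2 lay at 28.1% and 39.0%, and NCI-H520 Sox2 at 32.6% and 57.0%. Seen from LK2_GFP, the Brn2 and NCI-H520 orders were thus also present between the controls, and the p63 order was not. Seen from LK2 they were opposite. Both were more frequent at sites that ranked higher in LK2 than in LK2_DNp63. Both were less frequent at sites that ranked higher in LK2 than in LK2_GFP. The Brn2 and NCI-H520 gaps were smaller between the controls than in either split with LK2_DNp63. Beside LK2_DNp63 against LK2 they were only slightly smaller, with the direction seen from LK2 reversed.

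The p63 protein itself was found at a small share of Sox2 sites. In LK2_DNp63, 301 of 4217 Sox2 peaks overlapped one of the 3159 p63 peaks (7.14%, 6.40 to 7.95). The same p63 list overlapped 3.18% of the best 4217 LK2_GFP peaks (2.69 to 3.75) and 2.73% of the best 4217 LK2 peaks (2.28 to 3.26). The share varied little along the LK2_DNp63 ranking, from 7.58% in the best of 10 equal rank groups to 5.46% in the lowest. No p63 list of LK2 or LK2_GFP was analysed here, so p63 binding in the control cells is unknown.

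Seen from the p63 side, 2699 of the 3159 peaks (85.4%) had no Sox2 peak in any of the 3 lists. Sox2 was listed at 184 p63 peaks in LK2_DNp63 and in a control, at 118 in LK2_DNp63 alone and at 158 in a control alone. The last number shows that p63 and Sox2 peaks coincided at some places where the LK2_DNp63 library listed no Sox2. The median p63 percentile was 65.1 for the 118, 61.7 for the 184, 52.3 for the 158 and 48.1 for p63 peaks without Sox2.

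Site classes differed in p63, Brn2 and acetylation. p63 peaks lay at 16.9% of LK2_DNp63-only sites (14.2 to 20.0), at 4.89% of shared sites, at 2.22% of LK2_GFP-only sites and at 1.00% of control sites (0.724 to 1.38). Brn2 peaks of LK2 lay at 2.44% of LK2_DNp63-only sites (1.51 to 3.93), 37.8% of shared sites, 18.8% of control sites (17.5 to 20.1) and 8.50% of LK2_GFP-only sites. With classes made at equal numbers, Brn2 lay at 8.29% of LK2_DNp63-only sites and 29.0% of control sites, and p63 at 11.6% and 0.677%. No Brn2 list of LK2_DNp63 was analysed here. The LK2_DNp63-only sites thus had the highest p63 share and the lowest Brn2 share of these 4 classes, also beside the LK2_GFP-only sites of similar percentile.

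Control sites were less often acetylated in LK2_DNp63 than in LK2_GFP. H3K27ac peaks covered 40.4% of them in LK2_GFP (38.8 to 42.0), 37.1% and 29.6% in the LK2 libraries, and 24.7% in LK2_DNp63 (23.3 to 26.1). Acetylation in LK2_GFP and not in LK2_DNp63 was found at 638 control sites (17.7%), and the reverse at 73 (2.03%). Over all 13702 merged sites these shares were 12.2% and 4.60%, and H3K27ac lay at 40.9% in LK2_GFP and 33.4% in LK2_DNp63. The H3K27ac list of LK2_DNp63 had fewer peaks (30149 against 33454) over a greater length (36.6 against 33.8 Mb), and the part of list size in these shares was not tested. Shared sites had H3K27ac at 54.4% in LK2_GFP and 48.1% in LK2_DNp63.

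LK2_DNp63-only sites had the opposite pattern. H3K27ac was found at 37.5% of them in LK2_DNp63 (33.9 to 41.3), at 14.6% in LK2_GFP (12.1 to 17.5), and at 6.25% and 4.12% in the LK2 libraries. With classes made at equal numbers the 4 shares were 39.0%, 28.4%, 17.4% and 11.9%, a smaller contrast. At 157 of the 656 sites (23.9%) only LK2_DNp63 was acetylated of the 2 derivatives, and 146 of these had no H3K27ac peak in either LK2 library. At 403 sites (61.4%, 57.7 to 65.1) neither derivative had a peak, near the 54.5% of all merged sites and the 56.5% of LK2_GFP-only sites.

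**Figure D4:**
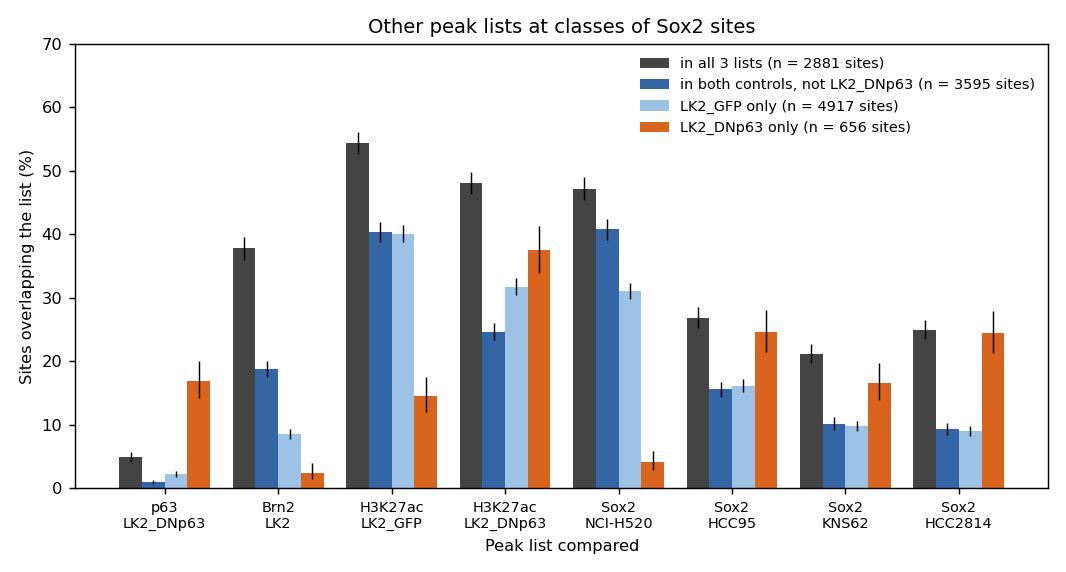
Share of Sox2 sites (vertical axis, percent) that overlap 8 other peak lists (horizontal axis) for shared sites, control sites, LK2_GFP-only sites and LK2_DNp63-only sites, with 95% Wilson intervals. LK2_DNp63-only sites have the tallest p63 bar (16.9%) and the shortest Brn2 (2.44%) and NCI-H520 Sox2 bars (4.12%).

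p63 separated the LK2_DNp63-only sites further. The 111 with a p63 peak had H3K27ac at 12.6% in LK2_GFP (7.66 to 20.1) and at 59.5% in LK2_DNp63 (50.2 to 68.1). The 545 without p63 had it at 15.0% and 33.0% (29.2 to 37.1). Among shared sites with p63, 141 in all, the shares were 69.5% and 76.6%. Sites where p63 and Sox2 were both listed in LK2_DNp63, and Sox2 in neither control, were thus mostly unacetylated in LK2_GFP and mostly acetylated in LK2_DNp63. A higher share in LK2_DNp63 was not particular to them. The 2699 p63 peaks without Sox2 in the 3 lists had H3K27ac at 24.7% in LK2_GFP and 43.7% in LK2_DNp63. At the 158 p63 peaks with Sox2 in a control alone the shares were 79.1% and 77.2%.

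The classes also differed in which other squamous lines bound Sox2. NCI-H520 had a Sox2 peak at 40.8% of control sites (39.2 to 42.5) and at 4.12% of LK2_DNp63-only sites (2.84 to 5.92), or 54.4% and 13.0% with classes made at equal numbers. In HCC95, KNS62 and HCC2814, 3 lines with Sox2 and no Brn2 ChIP, the order was reversed. HCC95 had Sox2 at 15.6% of control sites and 24.7% of LK2_DNp63-only sites, KNS62 at 10.2% and 16.6%, and HCC2814 at 9.29% and 24.5%. LK2_GFP-only sites had 16.2%, 9.78% and 8.99% in these 3 lines and 31.1% in NCI-H520. Shared sites had 26.9% and 21.1% in HCC95 and KNS62 and 721 of 2881 in HCC2814, and sites of LK2_DNp63 and LK2_GFP without LK2 had 28.8%, 21.5% and 25.2%, so overlap with the 3 lines was no higher at LK2_DNp63-only sites than there. In NCI-H520, shared sites had 47.2%, sites in LK2 alone 15.1%, and the 85 sites of LK2_DNp63 and LK2 without LK2_GFP 3.53%.

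Counted per site, 34.1% of LK2_DNp63-only sites had Sox2 in at least 1 of HCC95, KNS62 and HCC2814 and not in NCI-H520 (30.6 to 37.9), against 11.5% of control sites (10.5 to 12.6). Sox2 in NCI-H520 and in none of the 3 was found at 2.13% and 30.5%. Of LK2_DNp63-only sites with p63, 64.0% had Sox2 in HCC95, 34.2% in KNS62 and 52.3% in HCC2814, against 16.7%, 13.0% and 18.9% of those without p63. Shared sites with p63 also had a high share in HCC95, 61.7%, so the overlap with that line went with p63 in both classes. Of all LK2_DNp63-only sites 61.7% had no Sox2 peak in any of the 4 lines, against 54.5% of LK2_GFP-only sites and 50.4% of all merged sites.

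H3K27ac of NCI-H520 showed the same contrast, and the other lines showed smaller differences in either direction. NCI-H520 had H3K27ac at 36.4% of control sites and 7.01% of LK2_DNp63-only sites. Its share was 21.0% at sites in LK2 alone and 5.88% at the 85 sites of LK2_DNp63 and LK2 without LK2_GFP. The highest shares at LK2_DNp63-only sites were those of KNS62 (22.7%), HCC95 (21.2%), LC-1/SQSF (20.9%), HCC2814 (18.6%) and HARA (17.7%), and each exceeded that line's share at control sites, which was 18.0%, 14.6%, 16.2%, 10.4% and 12.4% in the same order. In KNS62, HCC95, LC-1/SQSF and HARA the LK2_GFP-only sites had still higher shares (26.9%, 23.3%, 25.3% and 22.2%). In HCC2814 they had 18.4% (17.3 to 19.5), about the same share. H3K27ac of these lines thus did not mark out the LK2_DNp63-only sites. In HCC2279, NCI-H2887, EBC-1, SQ-1 and HCC2450 the share at LK2_DNp63-only sites, 8.38% to 11.6%, was below that at control sites, 11.8% to 14.8%.

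The strongest single sites of each class are described next. By rule, 10 sites of each kind were taken in order of rank, so their counts describe these sites and not the classes. Of the 10 best control sites, 7 had Brn2, 6 had H3K27ac in LK2_GFP, 0 had it in LK2_DNp63, and 5 had Sox2 in NCI-H520. The site at chr4:4189969-4191261 (hg19) was peak 40 of LK2 and peak 15 of LK2_GFP, and the nearest LK2_DNp63 peak midpoint lay 50839 bp away. It had Brn2, H3K27ac in LK2_GFP and in both LK2 libraries, and no H3K27ac in LK2_DNp63. The site at chr12:46056991-46058158, peak 34 of LK2 and 75 of LK2_GFP, had the same marks. At chr5:16271694-16272586, peak 57 of LK2_GFP and 191 of LK2, none of the other lists named above had a peak, so strong control sites outside acetylated regions were also missing.

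Of the 10 best LK2_DNp63-only sites, 2 had p63, 4 had H3K27ac in LK2_DNp63, 1 had it in LK2_GFP, and 6 had Sox2 in HCC2814. The site at chr5:137840157-137841300 was peak 396 of LK2_DNp63. It had p63, H3K27ac in LK2_DNp63 and not in LK2_GFP or LK2, and Sox2 in HCC95, KNS62 and HCC2814. The site at chr7:123876169-123877408, peak 446, had p63, Brn2 of LK2 and H3K27ac in LK2_DNp63 alone. The best ranked of all, peak 178 on chromosome 8, had a peak in none of the other lists named above, and neither had the next, peak 286 at chr2:12418002-12419020.

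Of the 10 best shared sites, all 10 had Brn2 and 9 had Sox2 in NCI-H520, where all 2881 shared sites had 37.8% and 47.2%. Both shares rise with rank: in LK2 they were 59.3% and 67.5% in the best of 10 rank groups and 10.6% and 26.7% in the lowest. The 3 sets of 10 also differ in rank, and the part of rank in their counts was not tested. H3K27ac lay at 8 in LK2_GFP and at 8 in LK2_DNp63, and p63 at 0. The site at chr1:150448730-150450943 was peak 1 of LK2, 5 of LK2_GFP and 1 of LK2_DNp63. The site at chr12:31901843-31902920 was peak 4, 1 and 2, and had Sox2 in all 4 other lines and H3K27ac in 12 of 12. Genes at these sites are not named, because no annotation of the files' build was used here.

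Clusters were then counted as 50 kb bins with at least 3 Sox2 peaks. At equal numbers of top peaks there were 54 clusters in LK2, 44 in LK2_GFP and 38 in LK2_DNp63, holding 4.06%, 3.30% and 2.89% of the peaks. The lists were thus similar in how far their strongest peaks grouped, and no order of the 3 counts can be tested. Peaks were widest in the LK2_DNp63 list and narrowest in the LK2 list. The part of peak width in these counts was not tested. The clusters were not all in the same bins: 26 were common to LK2 and LK2_GFP, 15 to LK2 and LK2_DNp63, and 12 to LK2_GFP and LK2_DNp63. As a share of the LK2_GFP clusters, these are 26 of 44 for LK2 and 12 of 44 for LK2_DNp63.

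In the full lists LK2_GFP had 363 clusters, and LK2_DNp63 had 0 peaks in 109 of them, 1 peak in 138, 2 in 84 and at least 3 in 32. LK2, a shorter list than LK2_GFP but a longer one than LK2_DNp63, had 0 peaks in 15, 1 in 99, 2 in 130 and at least 3 in 119. Of the 152 LK2 clusters, 27 had 0 peaks in LK2_DNp63 and 22 had at least 3, whereas in LK2_GFP 0 were empty and 119 had at least 3. The LK2_DNp63 list is the shortest, and its length alone adds to its empty bins. At equal numbers of top peaks LK2_DNp63 had 0 peaks in 1 of 44 LK2_GFP clusters and in 1 of 54 LK2 clusters. The other control had 0 peaks in 0 of them. Peaks of clusters were found again in LK2_DNp63 slightly more often than lone peaks. Of LK2_GFP peaks in clusters 34.4% had an LK2_DNp63 peak (31.8 to 37.1), against 28.1% of lone peaks (27.1 to 29.1). Their median percentiles were 56.9 and 48.4. Among peaks above the median rank the shares were 53.3% and 46.6%, and among those below it 10.2% and 10.8%. The control pair had the same order: 59.3% of LK2_GFP peaks in clusters and 52.7% of lone peaks had an LK2 peak.

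**Figure D5:**
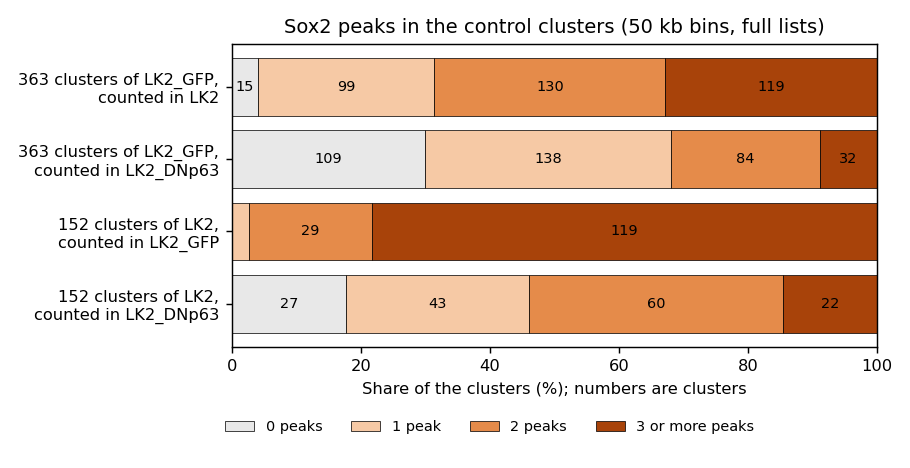
Clusters of Sox2 peaks (50 kb bins with at least 3 peaks) of LK2_GFP and of LK2, divided by the number of peaks that a second full list has in the same bin; bars show percent of the clusters and the printed numbers are clusters. LK2_DNp63 has no peak in 109 of 363 LK2_GFP clusters and in 27 of 152 LK2 clusters. Its list is the shortest, and at equal numbers of top peaks it has no peak in 1 of 44 and 1 of 54.

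Most bins differed by little between the lists. Over the 6006 bins with a peak in any list at equal numbers, LK2_DNp63 differed from LK2_GFP by at least 2 peaks in 117 bins (1.95%) and from LK2 in 129 (2.15%), against 58 bins (0.966%) between the controls. LK2_DNp63 had at least 2 fewer peaks than each control in 23 bins (0.383%), and at least 2 extra over each in 38 (0.633%). Control and LK2_DNp63-only sites were mostly spread singly. Of 3340 bins with a control site 231 held 2 or more, and of 645 bins with an LK2_DNp63-only site 10 did. Apart from sites that overlap p63 themselves, 15.8% of LK2_DNp63-only sites lay within 50 kb of a p63 peak (13.0 to 19.1), 18.3% of shared sites and 14.4% of control sites. Beyond the direct overlap, the LK2_DNp63-only share thus lay between the other 2.

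The largest shortfall against both controls at equal numbers, 3 peaks, was reached in 2 bins. The first was chr15:71700001-71750000. At equal numbers it held 5 peaks in LK2, 5 in LK2_GFP and 2 in LK2_DNp63, and in the full lists 6, 8 and 2. It contained 4 Brn2 peaks, 6 Sox2 peaks of NCI-H520 and 1 p63 peak. H3K27ac covered 44.4 kb of the bin in LK2_GFP, 37.4 kb in the first LK2 library and 14.0 kb in LK2_DNp63. The second, chr15:81100001-81150000, had 3 peaks in each control and 0 in LK2_DNp63, in the full lists as well, with H3K27ac over 6.82 kb in LK2_GFP and 1.42 kb in LK2_DNp63. At chr1:199100001-199150000 both controls had 2 peaks and LK2_DNp63 had 0, and H3K27ac covered 13.3 kb in LK2_GFP and 0.522 kb in LK2_DNp63.

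Fewer Sox2 peaks did not always go with so large a difference in acetylation. The bin chr3:181400001-181450000 had 3 peaks in the full LK2 list, 5 in LK2_GFP and 0 in LK2_DNp63, and was rich in Sox2 in NCI-H520 (10 peaks) and HCC95 (5 peaks). H3K27ac there covered 19.5 kb in LK2_GFP and 14.1 kb in LK2_DNp63. Of all 23 bins with at least 2 fewer peaks, 20 had less H3K27ac in LK2_DNp63 than in LK2_GFP and 2 had more. Of the 38 bins with at least 2 extra peaks, 20 had more and 11 had less. Over all 6006 bins 34.4% had less, 29.7% had more and 35.9% had equal lengths.

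The bin with most extra peaks was chr7:123850001-123900000, which includes the LK2_DNp63-only site with p63 described above. It held 4 peaks in LK2_DNp63, 0 in LK2 and 1 in the full LK2_GFP list. H3K27ac covered 15.6 kb in LK2_DNp63, 2.45 kb in LK2_GFP and 0 kb in the first LK2 library. This bin was not typical of its set. At chr3:71100001-71150000, with 4 peaks in LK2_DNp63 and 1 in each control at equal numbers, the full LK2_GFP list held 5 peaks, and H3K27ac covered 1.83 kb in LK2_DNp63 and 5.68 kb in LK2_GFP. At chr5:174150001-174200000 the counts at equal numbers were 3 against 0 and 0, but the full lists held 3, 2 and 3 peaks in LK2_DNp63, LK2 and LK2_GFP. In both bins the full LK2_GFP list held at least as many peaks as LK2_DNp63, while the full LK2 list held 2. There the extra peaks over LK2_GFP at equal numbers were a matter of rank and not of peak number. Whether the peaks lay at the same sites was not examined.

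Other clusters had equal numbers of peaks in all 3 lists. At chr5:135000001-135050000 and at chr7:111550001-111600000 every list had 4 peaks, at equal numbers and in full. At the first all 4 merged sites had a peak of each list, and at the second 3 of 5 did. H3K27ac covered 17.2 kb in LK2_GFP and 15.6 kb in LK2_DNp63 at the first, and 2.60 kb and 2.77 kb at the second. The first bin also held 8 Sox2 peaks of NCI-H520, and the second 5 Brn2 peaks of LK2.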

How the data were processed

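The deposited files are peak lists with a score per peak, made by the authors. Per the submitters' processing notes, Bowtie2 aligned the reads to the hg19 (GRCh37) build. The peak names begin with MACS, while its version and threshold, and whether inputs were used, were not given in the sources used here. Scores gave only the order of peaks in each list. Restriction to chromosomes 1 to 22 and X left out 17 (LK2), 23 (LK2_GFP) and 12 (LK2_DNp63) Sox2 peaks. Peaks overlapped when they shared 1 bp, lists were merged into sites, and bins were 50 kb with peaks placed by midpoint. Shares carry Wilson 95% intervals. Named were the 10 bins and 10 sites with the strongest difference or sharing, by peak number or rank. The members and lists were chosen with earlier results of these data known. No gene names or sequences are given, since no annotation or genome of this build was used. Overlap code was tested on simulated data. Alternatives were other overlap rules, numbers of peaks and bin sizes. Computation used Python 3.11.15, numpy 2.4.6, scipy 1.17.1 and matplotlib 3.10.9.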

Additional observations from a re-analysis of the deposited data

How the results depend on the processing

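Of 59 alternative values, 24 stayed within the interval of the main value or within 1.5 times a count. Of 11 orders between classes or lists, 10 held in every setting, and the exception was clusters of LK2_DNp63 against LK2 in 100 kb bins. Requiring 50% of the shorter peak gave H3K27ac at control sites in 33.7% (LK2_GFP) and 21.3% (LK2_DNp63), and at LK2_DNp63-only sites in 31.7% (LK2_DNp63). Midpoints within 200 bp gave shares of LK2_GFP peaks of 26.0% in LK2_DNp63 and 48.3% in LK2 (full lists) and 51.2% and 63.7% (equal numbers), and p63 at 4.51% of LK2_DNp63 and 1.67% of LK2_GFP peaks. The better 50% of each list gave 28.3% and 54.9%, and the better 50% of the p63 list gave 4.74% and 1.66%. With 1000 and 2000 top peaks LK2_GFP shared 53.9% and 55.0% with LK2_DNp63. With LK2 as the control the median percentiles were 73.2 (found again) and 37.2 (absent). Clusters in LK2, LK2_GFP and LK2_DNp63 numbered 22, 19 and 17 in 25 kb bins, 93, 94 and 93 in 100 kb bins, 347, 351 and 335 with at least 2 peaks, and 15, 14 and 10 among 2000 top peaks. Classes made at equal numbers gave control sites with H3K27ac of LK2_GFP at 45.0%, NCI-H520 Sox2 at 54.4% and p63 at 0.677%, and LK2_DNp63-only sites at 28.4%, 13.0% and 11.6%. These last classes hold sites that a control lists at a lower rank. No paired analysis was possible because each Sox2 arm has 1 library, so no library could be left out either. Depth is unknown, and differences between single libraries cannot be told apart from differences between the cultures.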

Other observations

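Chromosomes held similar numbers of Sox2 peaks at equal numbers of top peaks, with a few differences. Chromosome 8 had 388 in LK2_DNp63, against 353 in LK2 and 332 in LK2_GFP. Chromosome 7 had 257, against 297 and 302, and chromosome 12 had 214, against 262 and 256. One of the 10 best control sites, chr2:91806721-91814134, was 7414 bp long, where the median control site was 910 bp.

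p63 peaks at control sites were few but mostly acetylated in both derivatives. Of the 36 control sites with p63, 83.3% had H3K27ac in LK2_GFP (68.1 to 92.1) and 69.4% in LK2_DNp63 (53.1 to 82.0). Their Sox2 peaks were absent from the LK2_DNp63 list all the same.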
